A study of Drosophila melanogaster with 48 samples.

Results

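The 10 circadian clock genes followed here are *per*, *tim*, *Clk*, *cyc*, *vri*, *Pdp1*, *cwo*, *cry*, *Pdf*, and *dbt*. They were chosen by FlyBase symbol from the 13957 genes in a table of RNA-seq read counts of *Drosophila melanogaster* heads. The rule used no measured value, although earlier results of these data were known when the choice was made. All 10 were found in the table and passed the filter on low counts. The study fed males either standard food (control) or the same food with 75 mM menadione sodium bisulfite (MSB, stress), a compound that generates superoxide, and each library came from the pooled whole heads of 60 surviving males aged 5 to 7 days. The males were held under 14 h of light and 10 h of dark at 25°C. Lines from Germany (M12 and M9), Cyprus (C2), and Malaysia (KL) were kept on the food for 24 h. The 4 Zambian lines (ZI197, ZI254, ZI273, and ZI418) were kept on it for 18 to 20 h in both treatments. A delta marks a line that carries the deletion in the 3′ UTR of the metallothionein gene *MtnA*. M12Δ and M12, M9Δ and M9, and C2Δ and C2 are pairs that each derive from a single isofemale line, KL1Δ and KL2 are separate isofemale lines, and all Zambian lines are nondeletion. Each of the 12 lines had 2 control libraries. There was 1 stress library each for ZI197 and ZI418, there were 3 each for ZI254 and ZI273, and there were 2 for each other line.

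As background, the fly clock is a transcriptional feedback loop. The proteins of *Clk* and *cyc* form a dimer that activates *per* and *tim*, whose proteins accumulate at night, enter the nucleus, and inhibit the dimer. The same dimer activates *vri*, *Pdp1*, and *cwo*, and in turn VRI represses and PDP1 activates *Clk*, so that *Clk* RNA peaks in antiphase to *per* and *tim* RNA. The protein of *cwo* is a repressor at the sites that the dimer binds, the kinase encoded by *dbt* phosphorylates PER, *cry* encodes the blue-light photoreceptor that leads to the loss of TIM in light, and *Pdf* encodes the neuropeptide of the ventral lateral clock neurons. Most of the clock RNA of a whole head comes from the photoreceptors and glia, which hold their own clocks. The time of day at which the heads were collected is not given in the sources used here. Because the Zambian flies, controls included, were held for a shorter time, range and time of collection cannot be told apart anywhere below.

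Of the 48 libraries, 47 were used. An M9 stress library (replicate 1) was left out, because the study excluded a nondeletion stress library of M9 as an outlier and this library had a score of 49.33 on the second principal component, where the other 47 lay between -5.02 and 3.31. Total counts ranged from 27223075 to 63358011 in the 24 control libraries and from 29414147 to 53939743 in the 23 stress libraries. A clock gene had between 737 and 32305 reads in a library, so the spread between libraries, not the depth, sets the error of the values below. Nothing in the labels says whether replicates of a line came from separate cultures, and p-values measure only the spread between these samples. Expression is given as CPM, each count scaled to its library's size after TMM normalization. Neuron markers were present as the labelled tissue should have them, with a summed level of 3601 to 5210 CPM in controls and 3264 to 5134 CPM under stress and 0 of 8 markers past the threshold (an adjusted p of 0.05), and the photoreceptor markers summed to 52080 CPM or more in each control. The 6 testis markers summed to at most 1.95 CPM in any library used. The 4 flight muscle markers summed to 149 to 421 CPM in controls and 190.6 to 442 CPM under stress. Most of this came from a single marker, with 258 CPM on average in controls. Under stress, 6 of 8 glial markers and 5 of 6 fat body markers were lower. The summed glial level ranged from 2178 to 4663 CPM in controls and from 1612 to 3777 CPM under stress, and the fat body level from 4648 to 18930 CPM and from 1745 to 6917 CPM. Their part in the values of the clock genes was not tested, and in these bulk samples fewer cells of a type and less RNA in each cell cannot be told apart.

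A second feature of the libraries touches the clock genes directly and precedes the results. The 2 control libraries of C2Δ, KL2, ZI197, and ZI254 stood apart from each other in *tim* by more than 2-fold, and in these lines *vri*, *per*, and *Clk* differed with it. Results over lines that rest on these libraries are therefore also given without the 4 lines, an alternative that was chosen after seeing the data. The lines were left out for their values of *tim*. This lowers the spread between control libraries of a line for *tim* and for the genes that move with it. Values without these 4 lines are therefore given as a description, with no test.

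Levels were compared between genes on a scale of CPM per kilobase of the gene length in the deposited table. For some members this length was shorter than the exonic bases of the annotation, most of all for *Pdp1* (6855 against 12138) and *tim* (5641 against 7039). Places in the order below therefore depend on the length used. The order of the control medians was *cry* (138), *Pdf* (107), *Pdp1* (83.0), *tim* (78.8), *vri* (66.3), *dbt* (32.3), *per* (26.3), *cwo* (21.9), *cyc* (20.3), and *Clk* (7.60). *Clk* was the lowest in the order. Its highest control library (17.05) lay above the lowest ones of *cyc* (16.1), *tim* (13.5), *cwo* (12.9), *vri* (11.1), and *per* (8.39), so its range overlapped theirs. The control ranges of most neighbours in this order overlapped. *tim* spanned 13.5 to 129 and *vri* 11.1 to 89.1 on this scale, so each crossed the levels of several other members, whereas *dbt* stayed between 28.1 and 39.2. *Pdf* is made in few cells of the brain, and its level here is an average over the whole head.

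The repressor genes are described first. *per* (FBgn0003068) lies on chromosome X from 2685580 to 2692780 on the plus strand of the Release 6 assembly. It had 114 ± 56.2 CPM in controls (SD, n = 24) and 73.5 ± 26.8 CPM under stress (SD, n = 23), with a lowest, median, and highest value of 38.0, 119, and 232 CPM in controls and 40.6, 64.4, and 133 CPM under stress. The ranges overlapped, and the stress range lay within that of the controls. The log2 fold-change was -0.63 (SE 0.19, edgeR's quasi-likelihood test, adjusted p = 0.0049). *tim* (FBgn0014396; 2L, 3493986 to 3508119, minus strand) had 409.9 ± 230.1 CPM in controls (SD, n = 24) and 259.5 ± 72.0 CPM under stress (SD, n = 23), with 76.3, 445, and 728 CPM as lowest, median, and highest control value and 141, 269, and 449 CPM under stress. Its change was -0.66 on the log2 scale (SE 0.23, adjusted p = 0.0134 by the same test). With line as a block, the fold-change of *tim* was -0.48 and no longer past the threshold (adjusted p = 0.0645). Without the 4 lines named above, the values were -0.60 for *per* and -0.77 for *tim*.

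Counting all members, 5 of 10 were lower under stress over all lines and none was higher, where 53.5% of the 10514 tested genes were called, 26.2% lower and 27.3% higher. The other 3 were *Pdp1*, *cry*, and *dbt*. *Pdp1* (FBgn0016694; 3L, 7811458 to 7867369, minus strand), the activator of *Clk*, had 549.8 ± 142 CPM in controls (SD, n = 24) and fell to 432 ± 61.7 CPM under stress (SD, n = 23) (log2 fold-change -0.35, SE 0.090, adjusted p = 0.00108). *dbt* (FBgn0002413, the gene that the reference annotation calls *dco*; 3R, 31054085 to 31061210, minus strand) fell to 122 ± 6.13 from 135 ± 11.4 CPM (log2 fold-change -0.14, SE 0.030, adjusted p = 8.91e-05). This was the smallest change among the called members, on the gene with the narrowest spread. Without the 4 lines named above, the values were -0.38 for *Pdp1*, -0.57 for *cry*, and -0.15 for *dbt*.

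The remaining 5 members were not past the threshold in the test over all lines. The repressor gene *vri* (FBgn0016076; 2L, 5288944 to 5311223, plus strand) had -0.35 on the log2 scale (SE 0.21, adjusted p = 0.152), from 44.99, 269.7, and 362 CPM as lowest, median, and highest control value to 107, 159.5, and 249 CPM under stress. The activator genes had values of -0.10 for *Clk* (FBgn0023076; 3L, 7763233 to 7775603, minus strand; adjusted p = 0.535) and -0.08 for *cyc* (FBgn0023094; 3L, 19813770 to 19815938, minus strand; adjusted p = 0.215). *cwo* (FBgn0259938; 3R, 10388258 to 10400752, plus strand) had -0.03 (adjusted p = 0.771) and *Pdf* (FBgn0023178; 3R, 26455462 to 26456141, minus strand) had 0.17 (adjusted p = 0.241). In the 8 lines outside Zambia alone, *vri* (-0.56, adjusted p = 0.0043) and *cwo* (-0.32, adjusted p = 0.000659) were also called lower. This made 7 of 10, where 47.7% of all tested genes were called. With line as a block *cyc* was called lower (-0.13, adjusted p = 0.00186), in a fit that called 7421 genes against 5627 without the block. When the log2 CPM of *tim* was added as a covariate, an alternative chosen after seeing the data, *vri* turned to 0.23 (adjusted p = 0.0302), *per* had -0.31 (adjusted p = 0.0479) and *Pdp1* -0.22 (adjusted p = 0.00438), both nearer to 0 than before, and *cry* (-0.58) and *dbt* (-0.14) had nearly the values they had without it. The covariate was itself lower under stress, so this fit leaves out whatever part of the response moved with *tim*.

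**Figure D1:**
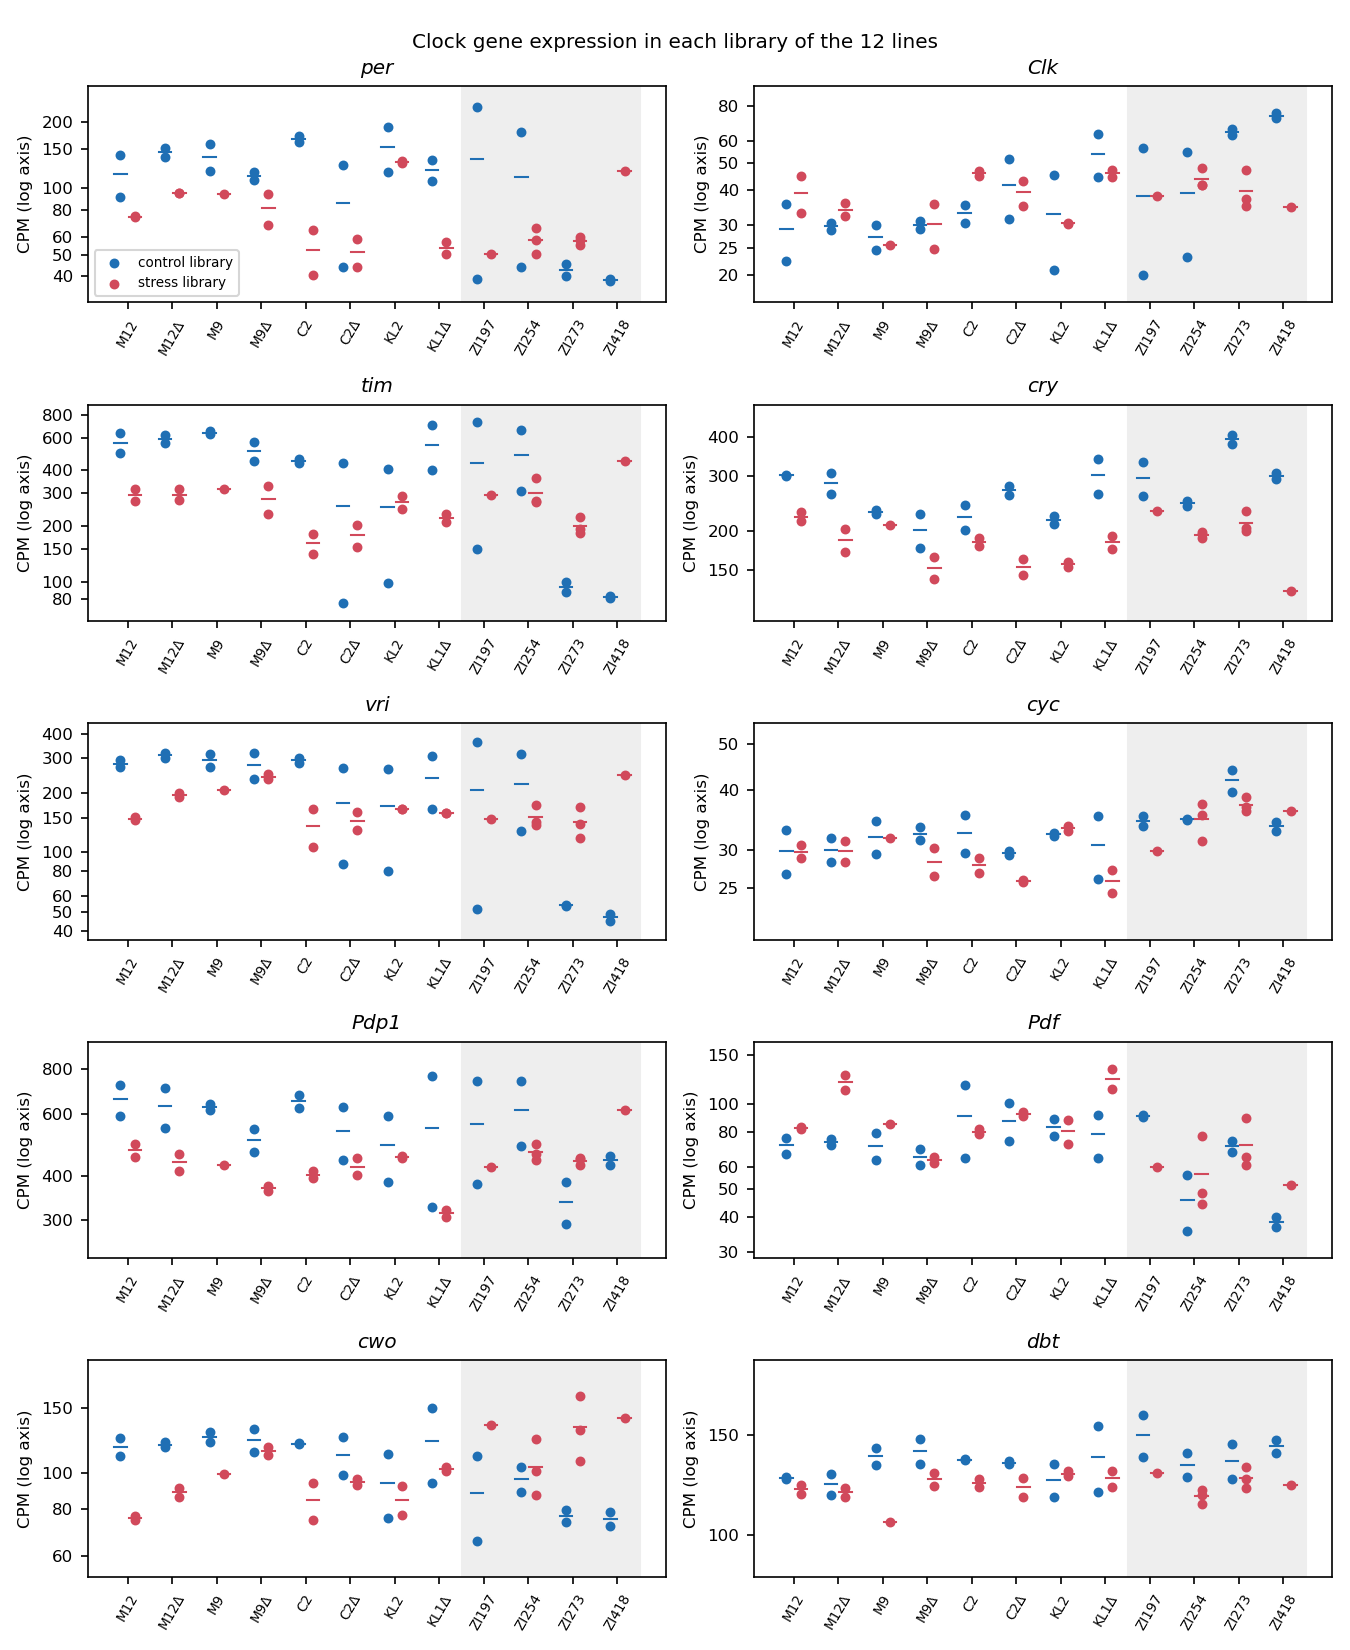
CPM of the 10 clock genes in each of the 47 libraries (points) by line on the horizontal axis, with blue for control and red for stress, a separate vertical scale for each gene, and shading behind the 4 Zambian lines. The red *cry* points lie below the blue ones in each line, and *tim* and *vri* show control points far apart within C2Δ, KL2, ZI197, and ZI254.

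The light receptor gene *cry* (FBgn0025680; 3R, 19212154 to 19215442, plus strand) had the smallest adjusted p of the 10. Its lowest, median, and highest values were 177, 262, and 408 CPM in controls and 128.5, 190.0, and 232 CPM under stress (log2 fold-change -0.55, SE 0.076, adjusted p = 2.98e-08). All stress libraries lay below all control libraries in 12 of 12 lines, which held for 5.15% of the tested genes. In M12Δ, for example, the controls had 307 and 262.5 CPM and the stress libraries 171 and 203 CPM. ZI418 had the largest difference, with 293 and 308.5 CPM in controls and 128.5 CPM in its only stress library (log2 fold-change -1.21, SE 0.15, adjusted p = 0.000446). M9 had the smallest difference, with 226 and 233 CPM in controls and 209.9 CPM in its only stress library used (log2 fold-change -0.15, SE 0.17, adjusted p = 0.53). The within-line test called *cry* lower in 8 of 12 lines, and the fold-changes of the remaining lines were -0.29 in C2, -0.51 in KL2, and -0.37 in ZI197 besides that of M9. The call in ZI254 was lost when any of 10 single libraries was left out, and that in M9Δ with any of 5. The exons of *cry* share 9 bases with those of *vib* on the other strand, and how the counting treated strand is not given in the sources used here. The exons of *per* likewise share 49 bases with those of *dyw*.

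Within single lines, the members were called lower in 25 and higher in 6 of 120 tests of a gene in a line, or 20.8% and 5.0%. Over all tested genes, 19.8% of such tests were called, 9.5% lower and 10.3% higher. Outside Zambia 22 of 80 tests of members were called lower and 2 higher, where 10.3% and 10.5% of the tests of all genes were. In the Zambian lines 3 of 40 were called lower and 4 higher, near the 8.08% and 10% of all genes, and 3 of the 4 higher calls came from the single stress library of ZI418. The difference between the groups was tested gene by gene below.

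*tim* fell in the 4 German lines. In M12Δ it had 625.3 and 563 CPM in controls and 316 and 275 CPM under stress (log2 fold-change -1.05, SE 0.15, adjusted p = 0.00101). In M12 the control values were 636 and 495 CPM and the stress values 317 and 273 CPM (log2 fold-change -0.95, adjusted p = 0.005). M9Δ and M9 had -0.90 (adjusted p = 0.00925) and -1.05 (adjusted p = 0.0165). In these lines the 2 groups of libraries did not overlap, with 1 stress library in M9. How many of all tested genes had no such overlap in a line was not counted. In ZI418 *tim* had 83.6 and 81.0 CPM in controls and 449 CPM in its only stress library (log2 fold-change 2.46, SE 0.62, adjusted p = 0.0195). The error of this value is that of the other Zambian libraries, since a single library has no spread of its own, and the same library stood apart from the other 7 Zambian stress libraries in *per*, *vri*, *Pdp1*, and *cry*. In ZI273 both control libraries were also low, at 87.5 and 99.4 CPM, and the stress libraries had 225, 183, and 193 CPM (log2 fold-change 1.12, SE 0.50, adjusted p = 0.117). In C2Δ, KL2, and ZI197 the direction of *tim* depended on which control or stress library was kept. Leaving out a library moved the fold-change between -1.33 and 1.19 in C2Δ, between -0.63 and 1.42 in KL2, and between -1.32 and 0.96 in ZI197. The value with all libraries was -0.52, 0.06, and -0.58 in these lines, none past the threshold.

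The sign of the fitted response was compared with that of *tim* line by line. It was the same in 11 of 12 lines each for *per*, *vri*, *Pdp1*, and *cyc*, in 10 for *dbt*, in 9 each for *cwo* and *cry*, and in 5 each for *Clk* and *Pdf*. *cyc* was called in no line, and in KL2 its value (0.007) and that of *tim* (0.06) were both small. The sign of *tim* in C2Δ, KL2, and ZI197 depended on which library was kept, as given above. How many of all tested genes shared the sign of *tim* this often was not counted. *vri* fell in M12Δ (-0.71, adjusted p = 0.00062) and M12 (-0.94, adjusted p = 0.000712) and was called higher in ZI418, with 44.99 and 48.4 CPM in controls and 247 CPM in the single stress library (2.42, adjusted p = 0.0453). *per* was called lower in M12Δ (-0.66), M12 (-0.66), C2 (-1.70), and KL1Δ (-1.17). Its largest fall was in C2, from 173 and 162 CPM to 64.4 and 40.6 CPM (adjusted p = 0.046). *Pdp1* was called lower in M12Δ (-0.57), M9Δ (-0.49), M9 (-0.56), and C2 (-0.71). Its control and stress libraries did not overlap in these lines, a pattern whose share over all tested genes was not counted. *cwo* was called lower in M12Δ (-0.46) and M12 (-0.65) and higher in ZI273 (0.82) and ZI418 (0.92). *dbt* was called in M9 (-0.41, adjusted p = 0.0464).

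*Pdf*, the neuropeptide gene, was the member with calls that were higher under stress outside Zambia. In M12Δ it had 75.5 and 72.0 CPM in controls and 113 and 128 CPM under stress (0.66, adjusted p = 0.00153). In KL1Δ the values were 92.2 and 64.5 CPM in controls and 133 and 113 CPM under stress (0.65, adjusted p = 0.0319). Stress libraries lay above the controls in both lines, a pattern whose share over all tested genes was not counted. Leaving out any of 5 single libraries ended the call in KL1Δ. Over the 12 lines the fold-change was above 0 in 8 and ranged from -0.62 to 0.66. Calls near the threshold were sensitive to single libraries in general. The call of *vri* in ZI418 was lost with 9 of 15 libraries left out in turn and that of *cwo* with 8 of 15, *per* in M12 was lost with 7 of 8, and *per* and *Pdp1* in C2 with 6 of 8 each. In a single fit over all 12 lines, 18 tests of a member in a line were past the threshold (where 21.5% of the tests of all genes were), against 31 in the separate fits.

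**Figure D2:**
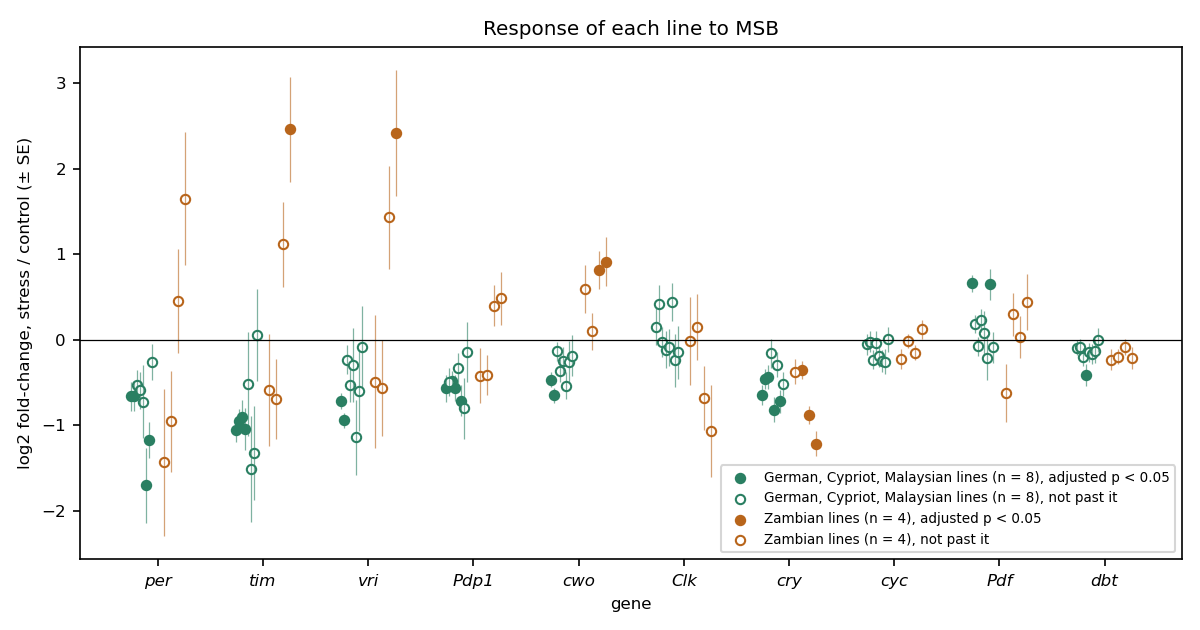
Log2 fold-change of stress over control (vertical axis, ± SE) of each clock gene (horizontal axis) in each line, with green for the 8 German, Cypriot, and Malaysian lines, brown for the 4 Zambian lines, and filled points for an adjusted p under 0.05. The points of *cry* lie below 0 in all 12 lines, while *tim* and *vri* reach 2.46 and 2.42 in ZI418 and *cwo* lies above 0 in the 4 Zambian lines only.

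The phase relations between the genes were read first from the 2 control libraries of a line, which share genotype and treatment. In C2Δ, *tim* had 76.3 and 438 CPM, *vri* 87.7 and 269 CPM, and *per* 44.2 and 127 CPM, while *Clk* went the other way with 51.7 and 31.7 CPM. In KL2, *tim* had 406.5 and 97.6 CPM, *vri* 264 and 80.1 CPM, and *Clk* 20.7 and 45.2 CPM. The contrast was widest in ZI197, where *tim* had 728 and 149 CPM, *vri* 362 and 51.6 CPM, *per* 232 and 38.7 CPM, and *Clk* 19.9 and 56.4 CPM. In each case the library with more *tim* had more *vri* and *per* and less *Clk*. ZI254 showed the same pattern with 309 and 659 CPM of *tim* and 54.9 and 23.1 CPM of *Clk*. *cry* and *cyc* differed little in these pairs, with at most 0.37 on the log2 scale for *cry* (ZI197) and 0.08 for *cyc* (ZI197). The differences in *tim*, *vri*, *per*, and *Clk* were large for the libraries they came from, although these lines were picked for *tim*. The lowest ranks were those of *Clk* in C2Δ (812th) and *per* in KL2 (704th). In ZI197 the difference in *vri* ranked 9th, that in *per* 14th, and that in *tim* 26th among 10514 genes, of which 3.82% differed by more than 2-fold. Over the 12 lines, the library with more *tim* had more *vri* in 10, more *Pdp1* in 10, and more *per*, *cwo*, and *dbt* in 9 each, and it had less *Clk* in 8. In the 8 lines other than C2Δ, KL2, ZI197, and ZI254, it had more *vri*, *Pdp1*, and *cwo* in 6 each and more *per* and *dbt* in 5 each, and less *Clk* in only 4. Among the 9 lines with at least 2 stress libraries used, no pair differed by more than 2-fold in *tim*, and the largest difference was 0.51 on the log2 scale.

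**Figure D3:**
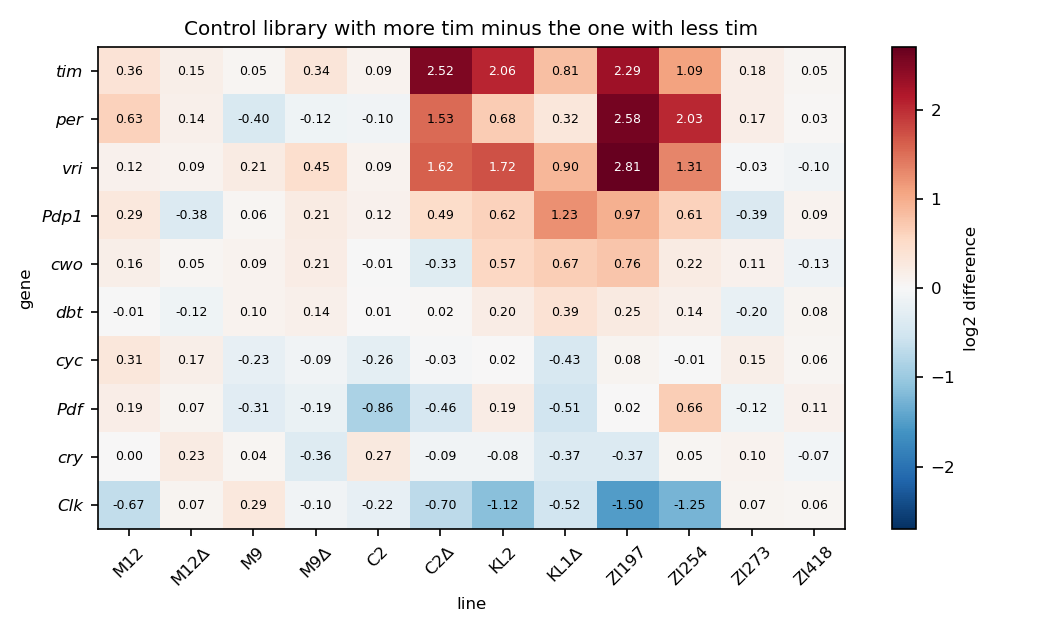
Log2 difference between the 2 control libraries of each line (columns), always the library with more *tim* minus that with less, for the 10 clock genes (rows), with red for higher and blue for lower. *tim*, *per*, and *vri* are red and *Clk* is blue in C2Δ, KL2, ZI197, and ZI254, where *tim* differs by 2.52, 2.06, 2.29, and 1.09.

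The relations over lines were described by Pearson's r of log2 CPM (with a prior count of 2), with no test, since the genes of a library share its depth and preparation and some lines share an isofemale line of origin. Over the control means of the 12 lines, *tim* had an r of 0.956 with *vri*, 0.844 with *cwo*, 0.828 with *per*, 0.809 with *Pdp1*, and -0.766 with *Clk*. Spearman's rho was 0.888 for *vri*, 0.804 for *cwo*, 0.573 for *per*, 0.692 for *Pdp1*, and -0.783 for *Clk*. ZI273 and ZI418 were farthest from the median of *tim*, and without them the r with *vri* was 0.854 but that with *per* was 0.372 and that with *Clk* -0.222. Those with *per* and *Clk* thus rested largely on these lines. In the 8 lines outside Zambia, r was 0.941 with *vri*, 0.8 with *cwo*, 0.567 with *Pdp1*, 0.404 with *per*, and -0.233 with *Clk*. Without C2Δ, KL2, ZI197, and ZI254 the values in the order just given were 0.989, 0.991, 0.825, 0.958, and -0.87. The lines kept here still included ZI273 and ZI418, and r without these as well was not computed. These values therefore do not show how closely the genes moved together in the remaining lines. Over the stress means of the 12 lines the values were 0.71, 0.335, 0.59, 0.664, and -0.495 in the same order.

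Within lines, the deviations of the 24 control libraries from the means of their lines, which mirror each other within a line and so hold 12 separate differences, gave an r of 0.959 between *tim* and *vri*, 0.863 between *tim* and *per*, -0.888 between *tim* and *Clk*, and -0.926 between *per* and *Clk*. No difference between lines can enter these values. The r of *tim* within lines was 0.772 with *Pdp1* and 0.556 with *cwo*, smaller than over lines. Without C2Δ, KL2, ZI197, and ZI254 it was 0.916 with *vri*, 0.558 with *per*, -0.734 with *Clk*, 0.77 with *Pdp1*, and 0.947 with *cwo*, over 8 differences. *cry* followed *Clk* less closely, with an r of 0.446 within lines and 0.576 over the 24 libraries. Among 8979 other genes with a mean log2 CPM of at least 1, *vri* ranked first in its r with *tim* over the 24 control libraries (0.957), *per* ranked 6th (0.831), *Pdp1* 15th (0.766), and *cwo* 17th (0.756), and *Clk* was the lowest of all (-0.80). Ranked by r with *Clk*, *per* was the lowest (-0.87) and *vri* second from the lowest (-0.86).

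The genes outside the 10 with the profile most like that of *tim* were *Usp8* (r of 0.894), *puc* (0.865), *gol* (0.858), *Cipc* (0.841), and *cyr* (0.813). *Usp8* encodes a deubiquitinase that acts on CLK, *Cipc* the fly relative of a mammalian inhibitor of CLOCK, *puc* a phosphatase of JNK, and *gol* a ubiquitin ligase of the RING type. The genes farthest from *tim* were *CG17127* (-0.79), *Drak* (-0.787), *CG8170* (-0.762), *Achl* (-0.76), and *CG11891* (-0.754). Those most like *Clk* were *CG11891* (0.832), *CG3226* (0.804), *Drak* (0.792), *CG8170* (0.789), and the zinc transporter gene *ZnT77C* (0.783), and those least like it were *gol* (-0.848), *Usp8* (-0.835), *Cipc* (-0.792), *HmgD* (-0.791), and *CG45071* (-0.786). The lists of *tim* and *Clk* thus shared *Usp8*, *gol*, and *Cipc* at one end and *Drak*, *CG8170*, and *CG11891* at the other.

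**Figure D4:**
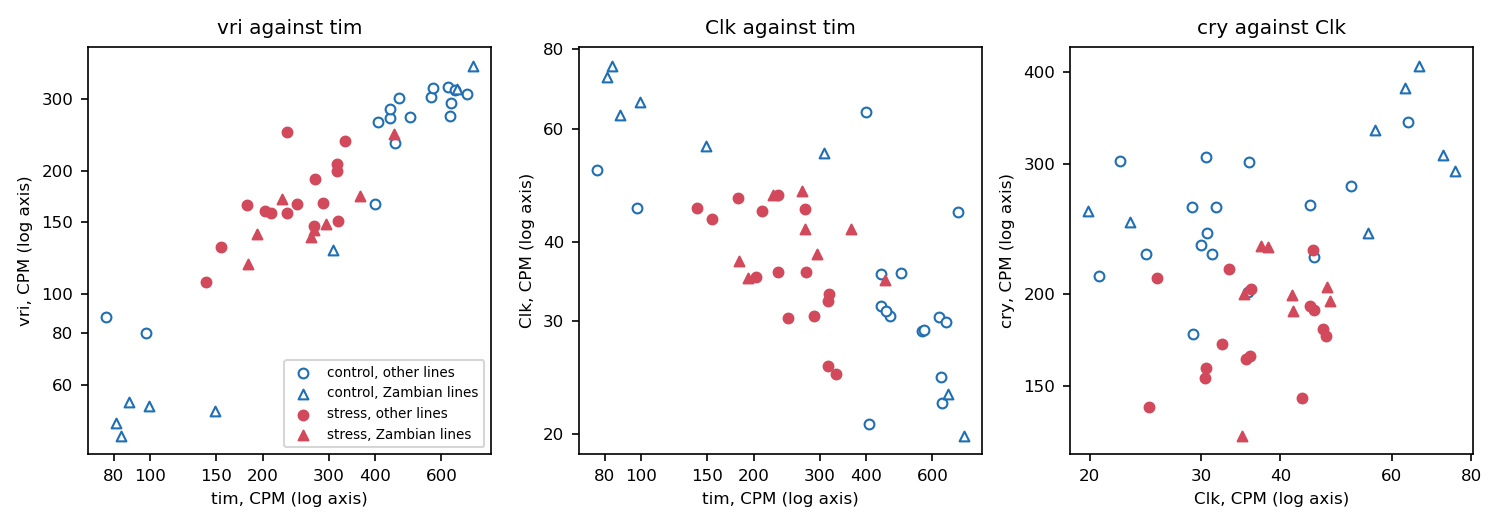
CPM (log axes) of *vri* against *tim*, *Clk* against *tim*, and *cry* against *Clk*, with 1 point for each of the 47 libraries, open for control and filled for stress, circles for lines outside Zambia, and triangles for Zambian lines. Control points spread from 76.3 to 728 CPM of *tim* along a rising line with *vri* and a falling line with *Clk*, and the stress points lie in the middle of that range, from 141 to 449 CPM.

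Several members had a narrower spread under stress than in controls. The SD of the log2 CPM of *vri* was 1.09 over the 24 control libraries and 0.32 over the 23 stress libraries, a ratio of 0.289, and 0% of the 10514 tested genes had a lower ratio. The ratio was 0.337 for *tim* (1.2 and 0.40), which 0.019% of genes fell below, 0.46 for *Clk*, 0.517 for *Pdp1*, and 0.559 for *per*. The median ratio of all tested genes was 1.00. *cyc* (1.15), *Pdf* (0.991), *cwo* (0.924), *cry* (0.813), and *dbt* (0.617) were nearer to it. The control values include ZI418 (83.6 and 81.0 CPM of *tim*), ZI273 (87.5 and 99.4 CPM), and the low control libraries of C2Δ and KL2. No stress library was under 141 CPM. Without C2Δ, KL2, ZI197, and ZI254, the ratio was 0.324 for *vri* and 0.359 for *tim*, and the median of all tested genes was 0.977.

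Differences among lines without stress were tested against the spread between the 2 control libraries of a line. Of the members, 3 of 10 were past the threshold, where 51.5% of 11194 tested genes were. They were *tim* (a range of 2.97 between the extreme lines on the log2 scale, adjusted p = 0.0395), *cry* (0.96, adjusted p = 0.00148), and *Pdf* (1.26, adjusted p = 0.0111). The line means of *tim* ran from 82.3 CPM in ZI418 and 93.5 CPM in ZI273 to 642 CPM in M9, and the lines between were M12Δ (594), M12 (565), KL1Δ (551), M9Δ (509.6), ZI254 (484), C2 (449.9), ZI197 (438), C2Δ (257), and KL2 (252). The C2Δ, KL2, ZI197, and ZI254 means each joined control libraries far apart, and neighbours in this order did not differ beyond that spread. *Pdf* was lowest in ZI418 (39.8 and 36.9 CPM) and highest by line mean in ZI197 (92.0 and 90.6 CPM). *vri* had a range of 2.74 but an adjusted p of 0.0548. In the 8 lines outside Zambia, only *cry* was past the threshold among the members, where 27.2% of all tested genes were, and the adjusted p was 0.498 for *tim* and 0.683 for *Pdf*. DESeq2 called 6 members, adding *vri*, *cwo*, and *Clk*, and 63.4% of all tested genes.

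Zambian and other lines were then compared in controls, with the counts of a line summed so that the 4 Zambian and 8 other lines were the units. By edgeR's quasi-likelihood test none of the 10 members was past the threshold, 5 had an unadjusted p under 0.05 where 10.9% of all tested genes did, and DESeq2 called 1, *cwo*, and 2.53% of all genes. Of all 11041 genes tested, 0.0362% were past the threshold. *cwo* was nearest, with line means of 75.4 to 96.4 CPM in Zambia and 94.1 to 125 CPM in the other lines, a log2 difference of -0.47 (SE 0.085, adjusted p = 0.0789). *vri* (-0.97, adjusted p = 0.40), *tim* (-0.82, adjusted p = 0.586), and *per* (-0.70, adjusted p = 0.453) had lower values in Zambia, and *Clk* (0.65, adjusted p = 0.28) and *cyc* (0.21, adjusted p = 0.217) higher ones. Only *cyc* had line means that did not overlap, from 33.7 to 42.0 CPM in Zambia and from 29.6 to 32.6 CPM elsewhere, and 1.57% of genes had no such overlap in controls. The Zambian lines themselves were split. ZI273 and ZI418 were below all lines outside Zambia in *tim*, *per*, *vri*, and *Pdp1* and ZI197 and ZI254 were not, and the control libraries of the latter differed from each other as given above. Without C2Δ, KL2, ZI197, and ZI254, which leaves only ZI273 and ZI418 for Zambia, the differences were -2.65 for *tim*, -2.50 for *vri*, -1.73 for *per*, and -0.67 for *cwo*.

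The response to MSB of the Zambian lines was set against that of the others in a test of the difference itself, with line in the model. The units of this test were libraries, not lines. Among the members, *cwo* alone was past the threshold, with a difference of 0.89 on the log2 scale (SE 0.14, adjusted p = 0.0017). Of 11520 genes tested, 0.495% were past it in either direction and 0.295% with a higher response in Zambia. The stress means of *cwo* were 104 to 141 CPM in the Zambian lines and 75.8 to 114.7 CPM in the others, the reverse of the order in controls. In ZI273 the controls had 73.8 and 79.7 CPM and the stress libraries 161, 108, and 131 CPM, whereas in M12 the controls had 124 and 111 CPM and the stress libraries 74.7 and 76.8 CPM. The line mean of *cwo* was higher under stress in 4 of 4 Zambian lines and lower in 8 of 8 others, although in ZI254 it went only from 96.4 to 104 CPM. Leaving out each line in turn gave differences from 0.78 to 1.12, all past the threshold. With counts summed by line and treatment, the value was 0.94 and not past the threshold (adjusted p = 0.133), and no gene of the table was.

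Among the other members, *tim* (1.39, SE 0.44, adjusted p = 0.150) and *vri* (1.195, SE 0.41, adjusted p = 0.212) had the largest differences in response. When each of the 12 lines was left out in turn, both were past the threshold only without ZI254 (*tim* 2.05, adjusted p = 0.0346, and *vri* 1.87, adjusted p = 0.035). In the other 11 fits neither was. Libraries were the units in these fits as well. Without C2Δ, KL2, ZI197, and ZI254, the differences were 2.72 for *tim*, 2.47 for *vri*, 1.77 for *per*, 1.23 for *cwo*, 1.01 for *Pdp1*, and -0.96 for *Clk*. The Zambian response then rests on ZI273 and on ZI418 with its single stress library, the lines whose controls were low in *tim*. The differences of *cry* (-0.17, adjusted p = 0.577), *cyc* (0.04), *Pdf* (-0.11), and *dbt* (-0.05) were not past the threshold with all lines.

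**Figure D5:**
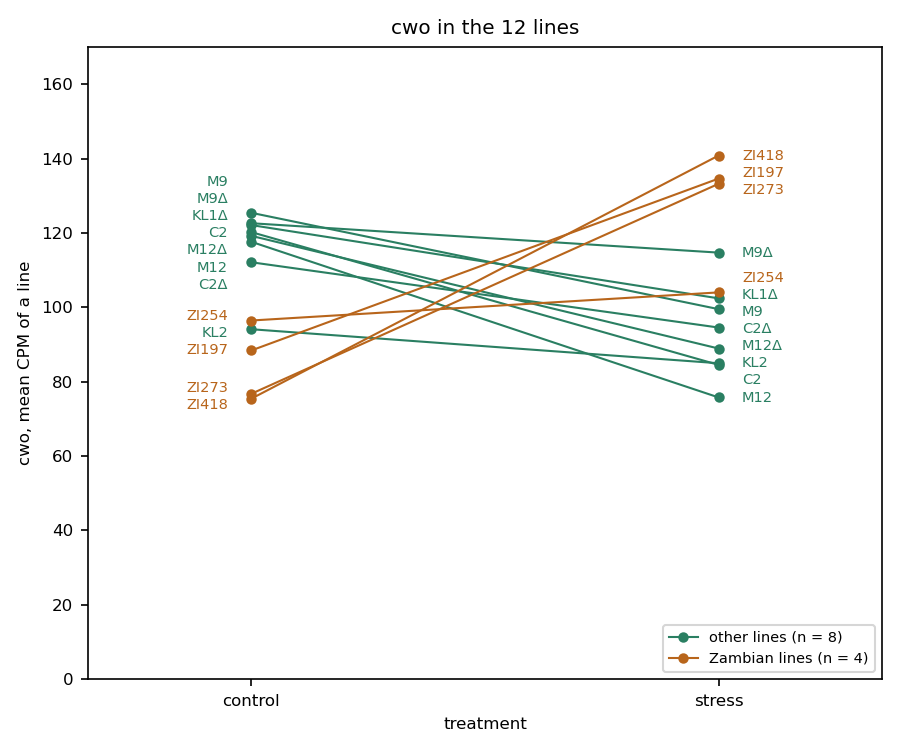
Mean CPM of *cwo* in control and stress libraries of each line, joined by a line, with brown for the 4 Zambian lines and green for the 8 others (labels are moved apart vertically where they would overlap). All brown lines slope upward, to between 104 and 141 CPM, and all green lines downward, to between 75.8 and 114.7 CPM.

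The response did not differ past the threshold between *MtnA* genotypes for any clock gene. In the 31 libraries of the 8 lines outside Zambia, edgeR's quasi-likelihood test of genotype by treatment called 0 of 10 members and DESeq2 called 0 (and 1.19% of all genes), and 1 member, *cry*, had an unadjusted p under 0.05 where 13.3% of all genes did. Of 11336 genes tested, 0.159% were past the threshold. The response of *cry* was lower by 0.30 on the log2 scale in deletion lines (a value of -0.30, SE 0.11, adjusted p = 0.218).

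Genes that act on the clock were taken from fixed lists. The counts of each list are to be read against the share of all tested genes over all lines, of which 27.3% were called higher and 26.2% lower. Of 14 kinases, phosphatases, and factors of protein turnover, 2 were higher and 6 lower under stress over all lines, with a median log2 fold-change of -0.08 where that of all tested genes was 0.01. *Usp8* fell from 143 ± 63.8 to 67.0 ± 16.9 CPM (-1.09, adjusted p = 2.59e-07). Its mean was lower in 12 of 12 lines, which held for 12.7% of the tested genes. *CkIIalpha*, the catalytic subunit of casein kinase 2, which phosphorylates PER and TIM, had -0.32 (adjusted p = 1.25e-09), and *mts*, the catalytic subunit of protein phosphatase 2A, had -0.16 (adjusted p = 1.55e-05). *jet*, the F-box gene that acts in the loss of TIM in light, was higher (0.21, adjusted p = 9.14e-05), as was *Pp1alpha-96A* (0.20, adjusted p = 0.0402).

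Of 13 genes of PDF signalling and of the channels through which clock neurons fire, 3 were higher and 2 lower, with a median of -0.04. The PDF receptor gene *Pdfr* had 89.9 ± 12.1 CPM in controls (SD, n = 24) and fell to 73.0 ± 9.90 CPM (SD, n = 23; -0.30, adjusted p = 1.06e-05), and the protein kinase A gene *Pka-C1* had -0.22 (adjusted p = 1.22e-05). *Irk1* (0.36), *wake* (0.34), which links the clock to sleep onset, and the transcription factor gene *CrebB* (0.29) were higher. The mean of *wake* and that of *CrebB* were higher under stress in 12 of 12 lines each, while *Pdf* itself split 8 to 4. How many of all tested genes were higher in 12 of 12 lines was not counted. Of 4 other genes that mark clock neurons, 1 was higher and 1, *Pdfr*, lower.

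Among 6 further input and stabilizing factors of the loop, 2 were higher and 1 lower. *kay*, the fly Fos gene, had 226 CPM in controls and 428 CPM under stress on average (0.92, adjusted p = 1.94e-11), and the nuclear receptor gene *Eip75B* had 0.27 (adjusted p = 4.46e-06). Both had higher stress means in 12 of 12 lines, a pattern whose share over all tested genes was not counted. *norpA*, the phospholipase C of phototransduction, was lower (-0.28, adjusted p = 0.000175). Of 5 genes found from a list of translation and RNA control of the clock, *Lsm12a* (0.32, adjusted p = 3.32e-10) and *Srpk79D* (0.25, adjusted p = 0.000212) were higher and none was lower. Of 12 head transcripts known to cycle, 3 were higher and 4 lower. The higher ones were *Gclc* (1.85) and *Gclm* (1.29), which encode both subunits of the enzyme that starts glutathione synthesis, and *Cyp6a21* (0.95). Of the lower ones, *e* (-1.31) and *Ugt35B1* (-0.82) had the largest changes. Of 12 photoreceptor markers 3 were higher and 1 lower, and of 3 tested flight muscle markers 2 were lower.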

How the data were processed

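The authors deposited the number of reads on each gene as raw counts, and had mapped paired-end reads of poly-A RNA to a FlyBase transcriptome of Release 6 with NextGenMap 0.5.5. The counting program and its treatment of strand are not given in the sources used here. Positions are from an Ensembl annotation of Release 6. Genes were matched by identifier (13908), by CG number (45), or by neither (4).

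Counts were tested in R 4.3.3 with edgeR 4.0.16 (TMM, filterByExpr, and two-sided quasi-likelihood F tests), with p-values adjusted by Benjamini-Hochberg across all genes of a test and called under 0.05. Treatment was the only term over all lines. Single lines were fitted by background with 1 group per line and treatment, and the 4 Zambian lines together. Lines with 1 stress library are assumed to vary like the rest of their fit. Each SE was derived from the fold-change and the root of its F statistic. Log2 CPM used a prior count of 2. Alternatives were DESeq2 1.42.0, RLE factors, no filter, all libraries, other units and blocks, and leaving out each library or line. On simulated counts with 200 genes changed by 1 on the log2 scale, 97.5% were recovered over all 10514 genes and lines, 93% in M12Δ (10955 genes), 74% for Zambian against other controls (11041 genes), and 96.5% for the difference in response (11520 genes). The simulated libraries had no differences between lines and a dispersion set by the trend over genes. These shares are therefore a check of the fits and not a measure of power for the clock genes.

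The genes named are the 10 members, the 5 genes most and least like *tim* and *Clk*, and up to 5 called genes of each fixed list, the largest changes first. Genes that share exon bases with a member are named besides. *Usp8* falls under 2 of these rules. Members and lists were chosen with earlier results of these data known. No column was left unmapped.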

Additional observations from a re-analysis of the deposited data

Results flagged for a closer look

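The 10 members were tested in 8 groups of 4 to 8 libraries for a library far from the rest, and 7 of these 80 tests found one, where chance gives about 1 in 20. In the Cypriot controls, C2Δ replicate 1 was far below the other 3 libraries in *tim* (76.3 CPM) and *vri* (87.7 CPM), and C2 replicate 1 was far above them in *cyc* (35.5 CPM). In the Zambian stress libraries, the only one of ZI418 stood apart as the highest of 8 in *per* (119 CPM), *vri* (247 CPM), and *Pdp1* (614 CPM) and as the lowest in *cry* (128.5 CPM). The response of *cwo* to MSB differed between Zambian and other lines by 0.89 on the log2 scale in the test of the difference itself, which had libraries as units. With counts summed by line and treatment, neither *cwo* nor any other gene was past the threshold. The time on the food differed between the same groups. Causes were not tested.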

How the results depend on the processing

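Over all lines, 5 members were past the threshold under each alternative but those without Zambian lines (7) and without ZI418 (6, with *vri*). The fit without C2Δ, KL2, ZI197, and ZI254 is not counted here. All genes past it were 5627 with treatment alone, 5004 without Zambian lines, and 5460 without ZI418. With line as a block there were 7421, with summed counts 6563, and with *tim* as a covariate 5870. The members past it were not always the same. With line as a block, and with counts summed per line and treatment, *tim* was lost (adjusted p = 0.0645 and 0.163) and *cyc* gained (0.00186 and 0.0133), and with *tim* as a covariate *vri* was called higher in place of *tim*, which has no value there. Uncalled members changed sign in places. *Clk* was 0.10 without the Zambian lines and -0.17 to 0.0097 with each line left out, *cwo* was 0.059 with *tim* as a covariate and -0.13 to 0.027 with each line left out, and *vri* was 0.23 with that covariate. In single lines, 18 tests of a member were past the threshold in 1 fit over all lines. Leaving out a library gave *tim* -1.33 to 1.19 in C2Δ, -0.63 to 1.42 in KL2, and -1.32 to 0.96 in ZI197. In total, 569 of the alternatives for members in single lines kept direction and side of the threshold, 13 gained a call, 4 changed sign, and the rest lost a call.

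Among lines without stress, 6 members were called by DESeq2 and 1 in the 8 lines outside Zambia, where 2994 genes were. Without C2Δ, KL2, ZI197, and ZI254, 7 members and 3760 genes were, but these lines were left out for the spread of *tim*, so that counts without them are not independent of the members' values. For Zambian against other controls, the counts of members and of all genes were 1 and 277 with DESeq2, 2 and 613 with libraries as units, 4 and 24 without C2Δ, KL2, ZI197, and ZI254, and 0 to 1 and 3 to 53 with each line left out. All genes were 8 with RLE factors, 9 without a filter, and 1 with each pair from a single isofemale line summed. For the difference in response, the counts were 0 and 0 with summed counts, 6 and 96 without those 4 lines, and 1 to 3 and 27 to 80 with each line left out, and all genes were 160 with DESeq2 and 32 with all 48 libraries. In this comparison *dbt* was 0.016 without C2Δ, KL2, ZI197, and ZI254, and *Pdf* was -0.21 to 0.027 with each line left out. For *MtnA* genotype, all genes were 135 with DESeq2, 11 without a filter, 3 with all 32 libraries, and 2 to 22 with each background left out, with 0 members in each.

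The r of *tim* with *cwo* was 0.991 without the 4 lines, in a set that kept ZI273 and ZI418. The r of *tim* was 0.404 with *per*, -0.233 with *Clk*, and 0.567 with *Pdp1* in the 8 lines outside Zambia. Without the 2 lines farthest from the median of *tim* it was 0.372 with *per*, -0.222 with *Clk*, 0.854 with *vri*, 0.582 with *Pdp1*, and 0.586 with *cwo*. Over stress means it was 0.664, -0.495, 0.71, 0.59, and 0.335 in the same order.

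The replicate numbers showed no pairing of libraries across treatments, and r between same-numbered deviations was -0.0919 to 0.22 in 9 lines. With the replicate number as a block, 2 members and 601 genes were past the threshold for Zambian against other controls and 23 genes for the difference in response. In each other case, where the cause is not plain from fewer lines or libraries, the cause was not tested. The number of libraries, not depth, limits these values, and ZI197, ZI418, and M9 had 1 stress library each in use.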
